A study of Mus musculus with 6 samples.

Results

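Cells that a microfluidic platform released from minced mouse kidney in the first 15 min of digestion were compared with those it released between then and 60 min. Members were all cells of the 15 min and 60 min platform libraries with 200 to 3000 genes and at most 50% mitochondrial UMIs (unique molecular identifiers, each standing for 1 captured transcript). They numbered 8390 and 9936, or 18326 of the 58561 cells deposited for 6 libraries. The mice were C57BL/6, aged 12 weeks, with no transgene or drug. Per the study's methods, each interval's cells were eluted from the same loaded tissue, with collagenase refilled in between, and all suspensions then passed red cell lysis and a sort for live cells. A further library, in which minced kidney was digested conventionally for 60 min (5886 kept cells), is given beside the intervals as the control. Values in groups of 3 are in the order 15 min, 60 min, control.

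There was 1 library a side. No test of interval was therefore possible, no difference given here has a replicate check, and the ranges in parentheses are 95% limits for counting error in these libraries only. The sort, capture and sequencing of a library cannot be told apart from its interval.

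The nephron is a tube of specialised epithelium. Its proximal tubule reclaims most of the filtrate in consecutive S1, S2 and S3 segments, its distal parts adjust salt, acid and water, and capillaries and resident macrophages lie between the tubules. Dissociation is known to induce immediate early genes, whose transcription needs no new protein, and heat shock genes, which encode chaperones, and macrophages answer danger signals with chemokines and cytokines.

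The libraries differed in depth and mitochondrial RNA. The median cell held 6612, 4583 and 5071 UMIs, and the median mitochondrial share was 20.4%, 8.59% and 7.38%. The intervals shared 211 cell barcodes, or 1.75% of the smaller library, of which 44 were kept in both. Leaving these out gave differences of -56.7, 20.5 and 13.3 percentage points for the 3 class shares that open the results.

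Cells were placed in 14 classes by distinct markers: at least 3 of a list's 8, with a lead of at least 2 over every other list. No class was given to 1.87%, 11.2% and 7.31% of cells, and 99, 541 and 186 of these held at least 3 markers of 2 lists. Cells simulated from the summed profile of the cells this rule had placed in a class returned to it in 94 to 100% of cases for 9 of 11 classes. The share was 70% for distal convoluted tubule and 85.5% for dendritic cells. Since the profiles came from the rule's own calls, these shares cannot show how often real cells were misplaced or missed.

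Proximal tubule cells dominated the early release. They made up 86.1% and 30.4% of cells at 15 and 60 min (7225 and 3017 cells), a difference of -55.8 percentage points (-56.9 to -54.6). Endothelial cells were 4.45% and 24.7%, a difference of 20.3 percentage points (19.3 to 21.2). Macrophages were 1.55% and 14.7%, or 9.48 times as much, a difference of 13.1 percentage points (12.4 to 13.9). The control held 53.8% proximal tubule cells, 9.60% endothelial cells and 14.2% macrophages, so that the late interval exceeded it mainly in endothelium.

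Distal tubule cells and other leukocytes were also a larger share of the late cells. Thick ascending limb cells, which dilute the urine, were 0.870% and 3.78%. Collecting duct principal cells, which take up water and sodium, were 0.131% and 1.38%, and distal convoluted tubule cells 0.131% and 0.725%. Intercalated cells were 0.262% and 0.433%, a difference whose limits include 0. B lymphocytes were 2.63% and 5.75% and T lymphocytes 1.26% and 4.25%. Stromal cells numbered 2 and 55, and podocytes, the filter cells of the glomerulus, 0 and 3.

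**Figure D1:**
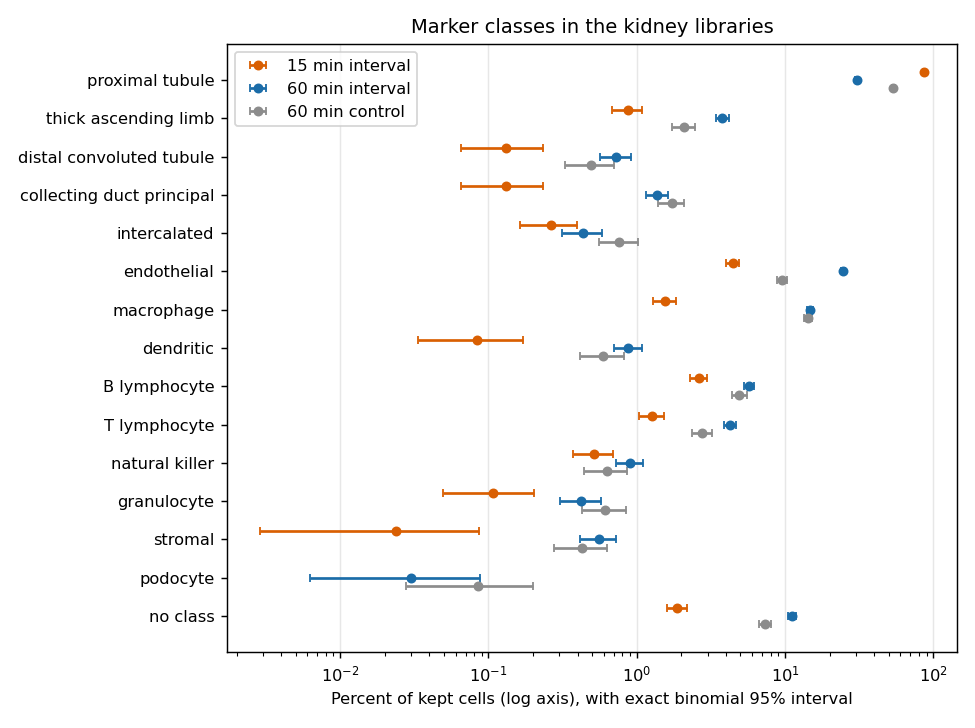
Share of kept cells in each marker class (percent, log axis) in the 15 min interval, the 60 min interval and the 60 min control, with exact binomial 95% intervals. Proximal tubule cells have their highest share at 15 min (86.1%) and endothelial cells theirs at 60 min (24.7%).

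Shares were also taken over cells of the other classes only (1008 and 5811 cells), since proximal tubule cells fill the early library. Macrophages remained a larger part of the late cells, at 12.9% and 25.1%, a difference of 12.2 percentage points (9.74 to 14.4). Endothelial cells were 37.0% and 42.2%, a difference of 5.24 percentage points (1.97 to 8.44). B lymphocytes were instead a larger part of the early cells, at 21.9% and 9.83%, a difference of -12.1 percentage points (-14.9 to -9.53), as were T lymphocytes at 10.5% and 7.26% and natural killer cells at 4.27% and 1.53%. The distal nephron classes together were 11.6% and 10.8%, with limits that include 0.

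Pooled counts carried this difference in composition. Of 2429 genes with a mean of at least 50 CPM (UMI counts scaled to the same library total) over the intervals, 509 (21.0%) were at least 2-fold higher at 60 min and 298 (12.3%) at 15 min. The 60 min classes were then weighted to their UMI shares at 15 min. So weighted, 82 of the 509 (16.1%) and 2 of the 298 (0.671%) remained past 2-fold in the same direction. In pooled counts, fewer cells of a class and less RNA per cell cannot be told apart.

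All 12 named genes that were higher at 15 min had their highest level in proximal tubule cells. Kap, the androgen-regulated kidney protein (chr6:133849851-133853762, mm10), was at 65817, 14663 and 25754 CPM, with a log2 ratio of -2.17 that was -0.95 after weighting. Ces2c, a carboxylesterase, was at 364, 74.4 and 128 CPM, and Mogat1, which makes diacylglycerol, at 133, 28.4 and 41.6 CPM. Only this pair stayed past 2-fold after weighting (-1.08 and -1.02). The organic anion transporter Slc22a6 was at 716, 170.4 and 279.6 CPM and the cytochrome Cyp4b1 at 2195, 551 and 775 CPM, with weighted ratios of -0.85 and -0.88.

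All 12 named genes that were higher at 60 min stayed past 2-fold after weighting. They were picked as the largest ratios in these data. At 15 min only Ccl4 (79.1 CPM) and Hspa1a (55.7 CPM) were above 50 CPM, so the others reached the floor only through their late level. That all 12 stayed past 2-fold was therefore partly set by how they were picked. The stress transcription factor Atf3 (chr1:191170296-191218039) was at 17.8, 1039.9 and 466 CPM, a log2 ratio of 5.87 that was 2.98 after weighting. The inducible chaperone Hspa1b was at 13.8, 933 and 402 CPM, with ratios of 6.08 and 4.11. The neutrophil chemokine Cxcl2 was at 3.48, 722 and 699.6 CPM, with ratios of 7.69 and 4.21. In each of the 3 the control stood far above the early interval. The others were Ifnb1, Ccl2, Tnf, Cxcl10, Ccl4, Cd83, Tnfaip3, Hspa1a and Phlda1, with weighted ratios from 2.42 to 8.45.

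**Figure D2:**
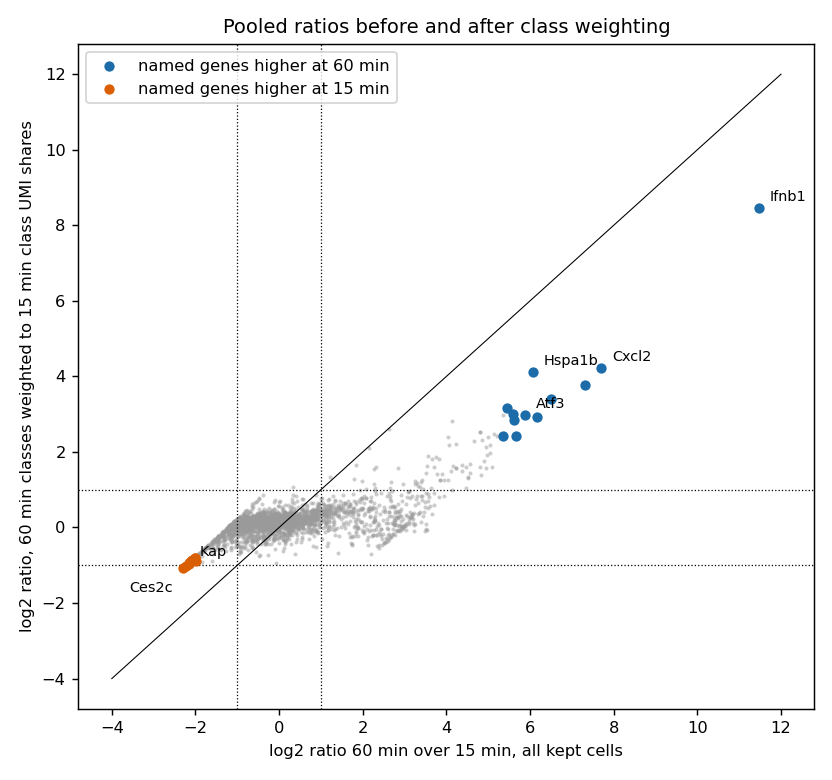
Each grey point is 1 gene of at least 50 CPM, with its log2 ratio of 60 over 15 min in all kept cells (x axis) and with the 60 min classes weighted to the 15 min class UMI shares (y axis); dotted lines mark 2-fold and the solid line equality. After weighting, 83 genes lie past 2-fold towards 60 min and 2 towards 15 min.

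Within proximal tubule cells few genes were past 2-fold. Of 2134 genes, 26 (1.22%) were higher at 60 min and 4 (0.187%) at 15 min: Ces2c, Mogat1, Ly6a and Cyp2d9, the last named because the count is small. The median log2 ratio of all genes was 0.15 in this class and -0.16 in both endothelial cells and macrophages, and ratios are to be read against it. The 26 included Fos, Jun, Jund, Dusp1 and Klf6, the chaperones Hspa1a, Hspa1b and Hsph1 and the nuclear RNAs Malat1 and Neat1. They also included Cd74, H2-Aa, H2-Ab1, H2-Eb1, Tmsb4x and Ccl4, genes typical of leukocytes.

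Segment genes differed in their proportions. The 4 S2 genes were all lower late, together at 4043, 2275 and 2362 CPM (log2 -0.83, -0.84 to -0.81). Among them, Cyp4b1 was at 2375, 1295 and 1276 CPM and Slc22a6 (chr19:8618039-8628299) at 777, 432 and 469.5 CPM. The 4 S1 genes, which reclaim glucose, lactate and amino acids, were together at 533, 649 and 341 CPM (log2 0.29, 0.26 to 0.32). Slc5a12, a lactate transporter, was at 84.6, 138 and 70.7 CPM (log2 0.71, 0.64 to 0.77), whereas the glucose transporter Slc5a2 (log2 0.16) and the amino acid transporter Slc7a7 (0.14) lay at the class median, so that only Slc5a12 and Slc7a8 stood above it and Slc7a7 turned to the other side of 0 with median ratio scaling. Of the S3 genes, Slc7a13, a cystine and glutamate carrier, was at 375, 249.9 and 239 CPM. Cyp7b1 was below the floor, at 4.32, 24.5 and 4.95 CPM. As shares of the segment UMIs, S1 genes were 10.3%, 19.2% and 10.96% and S2 genes 78.0%, 67.4% and 75.9%. In these shares the control stood near the early interval. By level, as given above, it stood near the late interval for S2 genes and below both intervals for S1 genes.

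Gluconeogenesis and ammonia genes, used throughout the tubule, differed little, at 9039 and 8801 CPM (log2 -0.04), with 0 of 7 past 2-fold. Pck1, which commits carbon to glucose, was at 997, 1077 and 1114 CPM. Kap within these cells was at 71459.5, 37166 and 43312 CPM. Kap was also counted in classes not known to make it, at 1194 and 898 CPM in endothelial cells and 1200.3 and 634 CPM in macrophages at 15 and 60 min.

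**Figure D3:**
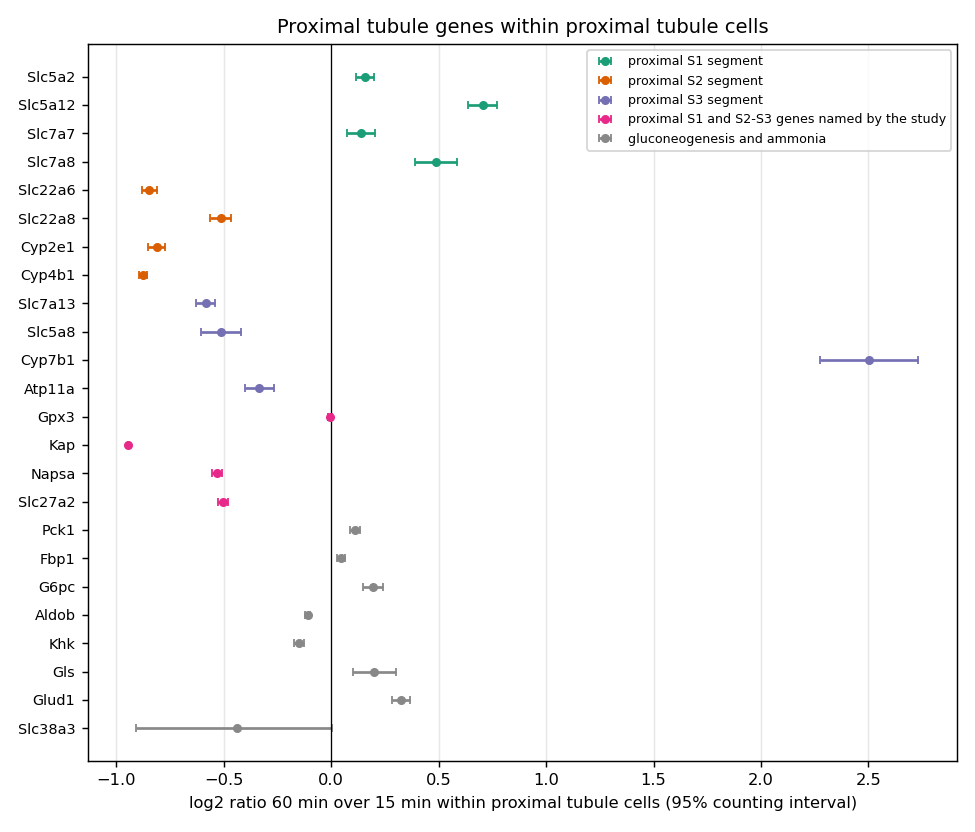
Log2 ratio of 60 over 15 min within proximal tubule cells (x axis, 95% counting intervals) for single genes, coloured by list. The 4 S2 genes lie left of 0 (Cyp4b1 at -0.87), the 4 S1 genes right of it (Slc5a12 at 0.71; Slc7a7 crosses 0 with median ratio scaling), and Cyp7b1, far right, rests on a low level.

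Immediate early RNA in proximal tubule cells was low, and higher late. The list was at 325, 1891 and 1003 CPM (log2 2.54, 2.51 to 2.57). Of its 17 genes, 5 reached the floor, and all 5 were past 2-fold. The floor is a mean over both intervals, so a gene low early, such as Fos, reached it only through its late level. That count is therefore partly set by the floor. Jun was at 60.0, 580.4 and 210.3 CPM and Fos, its partner in the AP-1 factor, at 10.0, 164 and 112 CPM. After thinning each cell to 1000 UMIs, 78.6, 52.0 and 59.9 percent of cells held no UMI of the list. Macrophage markers in these cells were at 9.37, 58.3 and 41.6 CPM and endothelial markers at 3.72, 25.1 and 4.90 CPM. In cells with at most 1 marker of any other list (6728 and 2213 cells, a limit chosen after seeing the data), the log2 ratio was 2.49.

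Malat1 (chr19:5795690-5802672), a nuclear long noncoding RNA, was at 3751, 18311 and 4988 CPM in proximal tubule cells (log2 2.29), and Neat1, another, at 48.6, 177 and 66.2 CPM. In both the control was nearer the early interval. The median thinned cell held 0 Malat1 UMIs in each library, and the 90th percentile was 1, 16 and 1, so a minority of late cells held most of it. In endothelial cells Malat1 was at 60855, 59873 and 58610 CPM.

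Endothelial cells were lower in chaperone and immediate early RNA when released early. Of 3293 genes, 50 (1.52%) were at least 2-fold higher at 60 min and 4 (0.121%) at 15 min. The heat shock list was at 6029, 21092 and 19972 CPM (log2 1.81, 1.78 to 1.84), with 8 of 10 genes past 2-fold. Hsph1, an exchange factor for Hsp70, was at 17.8, 240.1 and 269.6 CPM, Dnajb1, an Hsp70 co-chaperone, at 59.8, 409 and 397 CPM, and the chaperone Hsp90aa1 at 378, 2294 and 2574 CPM. In each, the late interval was close to the control and the early interval was far below both.

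The immediate early list in endothelial cells was at 12029, 24349.7 and 24002 CPM (log2 1.02, 0.99 to 1.04), with 10 of 16 genes past 2-fold. Atf3 was at 78.3, 875 and 1322 CPM and the transcription factor Egr1 at 416, 1666 and 1454 CPM, whereas Klf6 was at 178, 199.9 and 214 CPM. The median thinned cell held 8, 15.5 and 19 UMIs of this list. Proximal tubule Kap was somewhat higher in the early endothelial cells, as given above. With at most 1 other marker (242 and 1276 cells), the log2 ratios were 1.02 for this list and 1.78 for heat shock genes.

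Genes of vascular beds differed less. Arterial genes had a log2 ratio of -0.15, glomerular genes -0.23 and capillary and venous genes -0.20, all near the class median. The last list includes Plvap, which is also a marker of the class. Within that list, Igf1, a growth factor, was at 69.1, 211 and 210.2 CPM and Igfbp3, which binds it, at 1569, 991 and 1066 CPM.

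Heat shock genes were higher late in several classes, and 3 of their promoters are shown. RefSeq windows (GRCm38.p6, 250 bases before to 50 after a start) were found for 7 of the 10 genes, and 6 of the 7 held GAANNTTC, inverted units of the heat shock element, which reads the same on both strands. Over all genes with a window, 9.04% held these letters. Counted by window, 7 of the 10 heat shock windows held them, against 7.86% of all 32851. The Hspd1 and Hspe1 windows overlap and hold the same match read from opposite strands. The Hsph1 windows also overlap on the same match, and those of Hspa1a and Hspa1b are near-identical. Some matches are therefore counted more than once, and these counts are not of independent promoters. A match is a description of letters, not a binding site. Shown 5′ to 3′ with matches in capitals are Hspa1a (chr17:34972107-34972406, minus strand), Hsph1 (chr5:149636287-149636586, minus strand) and Hspb1 (chr5:135887669-135887968, plus strand). Their late levels exceeded the early ones in proximal tubule, endothelial cells and macrophages alike. They are examples that hold a match, and Hspa1b met the same condition. The gene without a match was Dnajb1, which was also higher late in endothelial cells. In Hsph1 the match lies after the start. Hspa1a and Hspa1b are near-identical copies, so the split of reads between them is uncertain.
Hspa1a: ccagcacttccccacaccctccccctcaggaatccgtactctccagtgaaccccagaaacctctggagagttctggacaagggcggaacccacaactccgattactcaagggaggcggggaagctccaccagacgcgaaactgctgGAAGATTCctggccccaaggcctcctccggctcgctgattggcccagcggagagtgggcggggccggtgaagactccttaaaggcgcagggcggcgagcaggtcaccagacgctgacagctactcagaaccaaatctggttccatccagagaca
Hsph1: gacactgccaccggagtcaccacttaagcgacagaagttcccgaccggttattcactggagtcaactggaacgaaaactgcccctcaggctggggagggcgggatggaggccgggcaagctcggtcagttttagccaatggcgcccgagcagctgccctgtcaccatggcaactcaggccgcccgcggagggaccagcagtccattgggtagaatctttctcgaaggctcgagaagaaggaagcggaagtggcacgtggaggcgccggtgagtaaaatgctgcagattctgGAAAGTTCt
Hspb1: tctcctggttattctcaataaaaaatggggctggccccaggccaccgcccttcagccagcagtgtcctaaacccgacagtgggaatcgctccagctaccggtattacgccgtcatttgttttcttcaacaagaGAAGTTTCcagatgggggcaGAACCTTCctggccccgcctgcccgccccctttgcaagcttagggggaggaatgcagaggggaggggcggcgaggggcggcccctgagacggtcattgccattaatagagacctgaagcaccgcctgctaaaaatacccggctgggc

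Macrophages had a larger share of genes past 2-fold towards 60 min than proximal tubule, endothelial or distal nephron cells. Of 2104 genes, 156 (7.41%) were at least 2-fold higher at 60 min and 34 (1.62%) at 15 min, from 130 early and 1459 late cells. Ifnb1 (chr4:88522025-88522774), which encodes interferon beta, was at 2.85, 706 and 15.8 CPM, from 2 UMIs early and 6303 late (log2 7.95, lower limit 6.10). Cells with a UMI of it were 0.769%, 34.3% and 0.955% of macrophages, and 0.994% of late proximal tubule cells, whose median depth was 5953 UMIs against 6098 in late macrophages.

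Other named genes were Cxcl10, Ifit1 and Oasl1. The chemokine Cxcl10 was at 49.8, 2291 and 186 CPM, the antiviral Ifit1 at 18.5, 485 and 21.3 CPM and Oasl1 at 9.97, 238 and 14.6 CPM. In Ifit1 and Oasl1 the control, digested for as long, stood near the early interval, and in Ifnb1 and Cxcl10 it was above the early and far below the late interval.

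Other chemokines were high in the control as well. Cxcl2 was at 184, 3563 and 3800.5 CPM and the monocyte attractant Ccl2 at 52.7, 448 and 547 CPM. Ccl4 was at 5126, 19105 and 8428 CPM and Tnf at 127, 1146 and 408 CPM, with the control between the intervals. The chemokine and cytokine list was at 10628, 38645 and 22014 CPM (log2 1.86, 1.83 to 1.90), with 10 of 10 genes at the floor past 2-fold. The NF-kB feedback list was at 1035, 3619 and 2273 CPM, with 5 of 5 at the floor past 2-fold. Among them Tnfaip3, an NF-kB inhibitor, was at 27.1, 395 and 159 CPM. Tnfaip3 reached the floor only through its late level, so such counts can be partly set by the floor.

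All 10 heat shock genes were past 2-fold in macrophages, together at 6007, 23061 and 15564 CPM (log2 1.94, 1.90 to 1.98). Hsph1 was at 17.1, 626 and 327 CPM and Hsp90aa1 at 552, 4484 and 2805 CPM. Hmox1, which degrades haem, was at 58.4, 746 and 523 CPM. The immediate early list differed less, at 20992, 32831 and 16887 CPM (log2 0.65, 0.62 to 0.67), with 5 of 16 past 2-fold. Fos was at 3958, 4845 and 1700.3 CPM, so that early macrophages already exceeded the control. With at most 1 other marker (75 and 654 cells), the log2 ratio was 0.92 for immediate early genes, 2.04 for heat shock genes and 2.23 for chemokines.

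Monocyte genes went the other way, at 728, 241 and 303 CPM. The chemokine receptor Ccr2 was at 253, 88.6 and 142 CPM, and Plac8 at 357, 100.2 and 123 CPM, from 8 early cells of which 1 held 24.7% of the UMIs. Resident macrophage genes were at 9681, 10080 and 9057 CPM. Haemoglobin genes had the largest ratios towards 15 min, but every early Hbb-bs UMI in macrophages (2422) came from 1 cell. In late proximal tubule cells 1 cell held 99.5% of Hbb-bs UMIs.

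**Figure D4:**
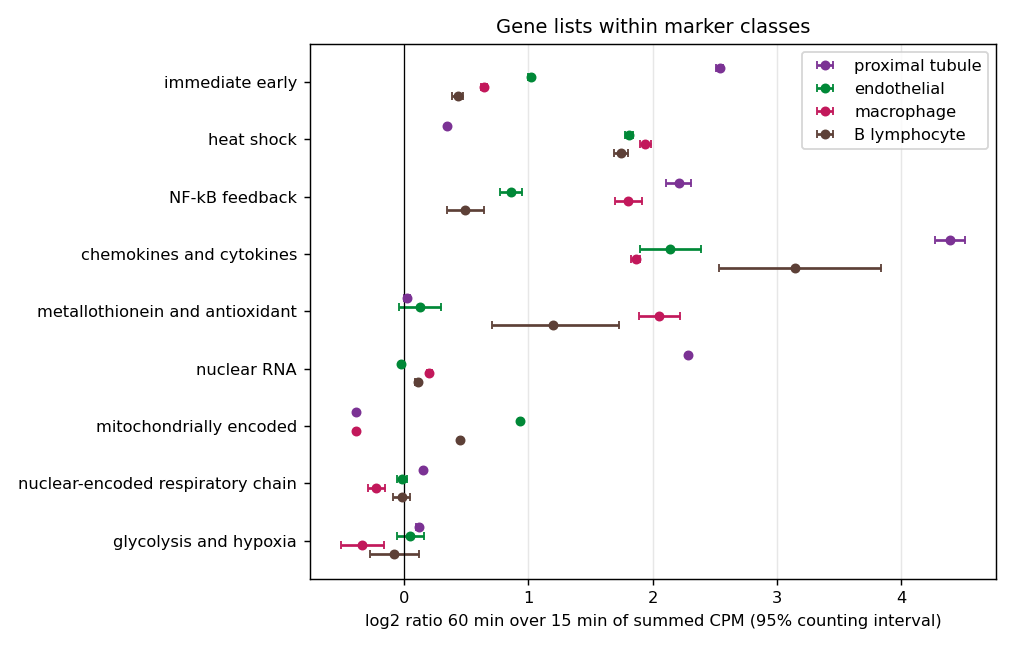
Log2 ratio of 60 over 15 min of the summed CPM of each gene list in 4 marker classes, with 95% counting intervals. Heat shock genes lie at 1.81 in endothelial cells, 1.94 in macrophages and 0.34 in proximal tubule cells, and mitochondrially encoded genes lie on opposite sides of 0.

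Distal nephron cells numbered 117 and 628. Of 2244 genes, 71 (3.16%) were at least 2-fold higher at 60 min and 10 (0.446%) at 15 min, but the mix of classes differed. Collecting duct principal cells were 11 of the early cells, at a median of 765 UMIs, and 137 of the late cells, at 3939, and their markers summed to 404 and 3117 CPM. The calcium-binding S100g, at 1829, 8511 and 9046 CPM, and Npnt, a matrix protein, at 13.0, 199.9 and 204 CPM, cannot be told apart from that mix. Thick ascending limb cells alone held their markers at 28088 and 27092 CPM, but these markers had placed the cells in the class. In these cells immediate early genes were at 646, 2663 and 3571 CPM (log2 2.04, 1.85 to 2.24), and heat shock genes at 2494, 3418 and 3945 CPM.

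Lymphocytes shared the chaperone difference. Heat shock genes were at 3338, 11182 and 10589 CPM in B lymphocytes (log2 1.74, 1.69 to 1.80) and 3671, 9084 and 11062 CPM in T lymphocytes (log2 1.31, 1.24 to 1.37). After thinning, Hspa1a was found in 1.84%, 33.7% and 31.4% of B lymphocytes (unthinned 2.71%, 48.3% and 40%). In proximal tubule cells the thinned shares were 0.434%, 10.5% and 2.76%. Immediate early genes differed less in B lymphocytes, at 7521, 10125 and 7887 CPM. Their members were not alike there. After thinning, Fos was found in 51.2%, 29.9% and 20.7% of B lymphocytes, so it was in fewer late cells. Jun was in 17.5%, 36.6% and 31.1%, and Egr1 and Atf3 were also in more late cells than early ones.

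**Figure D5:**
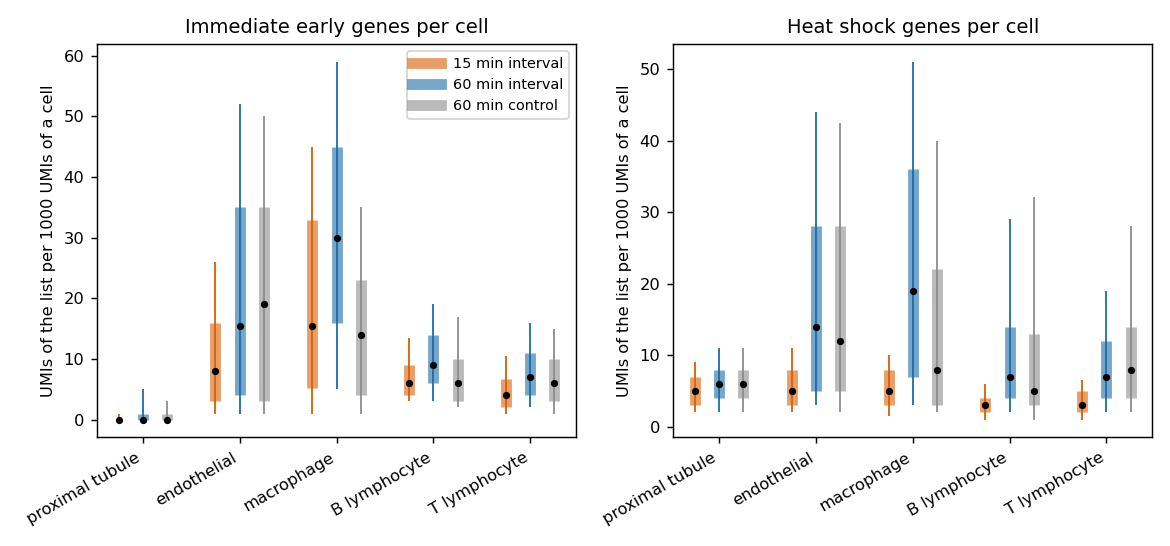
UMIs of the immediate early list (left) and heat shock list (right) per 1000 UMIs of a cell, by class and library: black points are medians, thick bars quartiles, thin lines the 10th to 90th percentiles over cells. Median heat shock UMIs were 5, 14 and 12 in endothelial cells and 5, 19 and 8 in macrophages.

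Some genes differed alike in unrelated classes. Over 6 classes (proximal tubule, endothelial, macrophage, distal nephron, B and T lymphocytes), Hspa1b and Ccl4 were at least 2-fold higher late in each, and were named after their values were seen. Late Ccl4 was at 19105 CPM in macrophages and 772 CPM in T lymphocytes. It was at only 106 CPM in proximal tubule, 178 in endothelial, 136 in distal nephron and 124 in B cells. Whether the cells of these classes made it was not tested. Gm10076 was higher late by 1.74 to 2.60 times and mt-Nd4l by 1.76 to 5.21 times, and for this pair the control stood nearer the early interval in each class. AY036118 was lower late in 5 of the 6, at 889.6, 414 and 1087 CPM in endothelial cells. Gm10076, mt-Nd4l and AY036118 differed by library in unrelated classes, and their part in the other results was not tested.

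Mitochondrially encoded genes divided the classes. They were at 226194, 172629 and 142998 CPM in proximal tubule cells (log2 -0.39) and 105651, 80673 and 66757 CPM in macrophages (-0.39), but at 50313, 96193 and 68084 CPM in endothelial cells (0.94), where 13 of 13 genes were higher late and 5 were past 2-fold. Their median share of a cell's UMIs was 21.7% and 15.7% in proximal tubule cells and 3.03% and 4.48% in endothelial cells. Cells were kept by mitochondrial share, so these values are cut by that rule. With every cell of at least 200 genes, the share of class UMIs was 7.02% and 10.8% in endothelial cells. It was 19.4% and 14.9% in proximal tubule cells and 10.5% and 8.67% in macrophages. Distal nephron cells changed direction, from 30.2% and 28.4% in kept cells to 33.7% and 37.8%.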

How the data were processed

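Droplet libraries of mouse kidney cells were used, 1 for each condition. The deposited matrix holds raw counts of UMIs, as whole numbers, which the authors made with Cell Ranger 3.1.0 on mm10 and joined over libraries with read depth evened, so UMIs lost in that step are not seen. Kept totals ran from 33644880 to 61434200 UMIs a library. Counts were summed by class and library and compared as CPM, with exact conditional intervals for ratios, Newcombe intervals for share differences and exact binomial intervals for shares. All cover counting error only. Named genes were the 12 largest pooled ratios past 2-fold in each direction, and within a class the 8 largest with a mean of at least 100 CPM and 30 UMIs, outside the class markers and not over 5 times higher in another class, together with members of the lists. Members, markers and lists were chosen with earlier results of these data known. No doublet caller was run. Python 3.11.15, numpy 2.4.6 and scipy 1.17.1 were used, and the code was tested on simulated data. The tumour libraries were not used here. Some items are not reported here.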

Additional observations from a re-analysis of the deposited data

Results flagged for a closer look

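Mitochondrially encoded genes drew attention because the intervals differed in opposite directions in different classes. The summed log2 ratio of 60 min over 15 min was 0.94 in endothelial cells against -0.39 in proximal tubule cells, and 0.94 in endothelial cells against -0.39 in macrophages. The signs held against the median gene of each class. Cells were kept by mitochondrial share, which cuts these values. With every cell of at least 200 genes the directions held, with 7.02% and 10.8% of endothelial UMIs against 5.03% and 9.62% in kept cells. The difference between classes was not tested, since each interval had 1 library. The comparison of list sums was chosen after values were seen.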

How the results depend on the processing

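No paired analysis was possible because each interval had 1 library, and for the same reason no replicate could be left out. The class share differences and the immediate early ratios kept their direction under the alternatives run, whereas single list genes near 0, such as Slc7a7, Pck1 and Fbp1 in proximal tubule cells, changed sign with median ratio scaling. With every cell of at least 200 genes, the share differences were -49.5 points for proximal tubule, 15.9 for endothelial cells and 9.99 for macrophages, and with mitochondrial shares of at most 25% they were -53.8 for proximal tubule and 14.9 for macrophages. Pooled counts past 2-fold (509 higher at 60 min, 298 at 15 min, 63.1% of them at 60 min) were 249 and 91 (73.2%) with every cell, 2299 and 505 (82.0%) at a floor of 10 CPM, and 83 and 2 (97.6%) after class weighting. The split was 54.4% without mitochondrial genes in the total and 69.6% with median ratio scaling. In proximal tubule cells (26 and 4, 86.7%), the count at 60 min was 43 with every cell and 160 at 10 CPM. The count at 15 min was 9 with every cell, 11 at mitochondrial shares of at most 25% (split 74.4%), 9 without mitochondrial genes (72.7%), 16 with median ratio scaling (60.0%) and 10 at 10 CPM. In endothelial cells (50 and 4, 92.6%), they were 143 and 55 at 10 CPM (72.2%), and the count at 15 min was 8 with classes from thinned cells, 2 with median ratio scaling and 2 with at most 1 other marker.

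The immediate early log2 ratio in proximal tubule cells was 1.72 with every cell, 2.27 at mitochondrial shares of at most 25%, 2.46 with thinned classes, 2.49 with at least 4 markers, 2.44 without mitochondrial genes, 2.39 with median ratio scaling and 2.49 with at most 1 other marker. In endothelial cells it was 0.99 with every cell, 1.06 at 25%, 1.06 with thinned classes, 1.09 without mitochondrial genes and 1.18 with median ratio scaling. In macrophages it was 0.56 at 25%, 0.68 with thinned classes, 0.61 without mitochondrial genes, 0.81 with median ratio scaling and 0.92 with at most 1 other marker. The cause of these shifts was not tested. Dropping shared barcodes and the limit on other markers were chosen after seeing the data. The 130 early macrophages and 117 early distal nephron cells limit what can be said of genes with few UMIs there.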

Other observations

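Tubule injury genes in endothelial cells and macrophages, which are not tubule cells, were at 660.2, 1104 and 1432 CPM and 604, 1272 and 1233 CPM. Metallothionein and antioxidant genes were at 436, 1808 and 1534 CPM in macrophages and 233, 254 and 347 CPM in endothelial cells. Among kept cells, mitochondrially encoded genes were higher late in B lymphocytes (log2 0.45) and T lymphocytes (0.72).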
